A study of Mus musculus with 12 samples.

Results

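RNA of macrophages from the livers of untreated mice was compared across all genes with RNA of sinusoidal endothelial cells (SEC) from untreated livers. The members were 4 arrays, the 2 labelled as untreated liver macrophages and the 2 labelled as untreated liver SEC, of the 12 arrays in the series. Every mouse was a male of the C57Bl/6 strain. The titles of all 12 arrays mark the mice as wild type (WT), and no agent is stated for the untreated mice. They served as age-matched controls of mice given diethylnitrosamine (DEN, a liver carcinogen). DEN was given by intraperitoneal injection at 25 mg/kg on day 25 after birth, and the tumours of these mice were watched over 9 months. The other 8 arrays held macrophages and SEC of DEN-treated mice and hepatocytes of DEN-treated and of untreated mice, 2 arrays a group. The series' design text describes RNA pooled from 3 to 4 mice for the DEN samples. The sources used here do not give whether untreated RNA was pooled, nor how the cells were isolated and checked for purity. No label says that the 2 replicates of a group came from separate mice or isolations, so the p-values measure the spread between arrays, which may be technical. Of the genes on the array, 12473 had a probe above background in at least 1 of the 6 groups, and each is described by 1 probe, whose values are on the log2 scale of the table that the authors deposited. Differences are given as macrophages minus SEC on that scale, so that 1 unit is a 2-fold difference, and genes were called at a Benjamini-Hochberg adjusted p under 0.05 in a limma fit.

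Liver sinusoids are lined by endothelial cells that have open pores and no continuous basement membrane, and that take up large amounts of waste molecules from blood through scavenger receptors. Kupffer cells, the resident macrophages of the liver, sit inside the same sinusoids, capture bacteria and particles, clear old red blood cells and recycle their iron. Both cell types are found in the non-parenchymal fraction of a digested liver, beside stellate cells, cholangiocytes and lymphocytes, so that a preparation of either can hold RNA of the others. In such bulk samples, fewer cells of a type and less RNA per cell cannot be told apart.

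Of 12473 genes, 5656 (45.3 percent) were called, 2885 (23.1 percent) of them higher and 2771 (22.2 percent) lower in macrophages. The counts of each gene list below are to be read against these shares. An alternative processing is given where it moves a value by more than 1.5 times. On the linear scale, it subtracts from each array its median of olfactory and vomeronasal receptor probes. Results under 16 are set to 16, and log2 is taken again. Differences of at least 2-fold were found for 482 genes higher in macrophages (3.86 percent) and for 640 genes higher in SEC (5.13 percent). The median difference over all genes was 0.00, and the median standard error of a difference was 0.07. Values of the 2 macrophage arrays correlated at 0.998 across the 12473 genes tested, each with 1 probe, as did those of the 2 SEC arrays. Over the same genes, the differences between the arrays of a pair had a standard deviation of 0.08 in each preparation. Between 20341 and 20364 probes were above background on the macrophage arrays, and between 20142 and 20568 on the SEC arrays. Background lay at 7.43 on the deposited scale on the macrophage arrays, and between 7.43 and 7.44 on the SEC arrays. The deposited values ended between 7.19 and 15.19 on every array, so differences of genes near either end may be compressed. For 579 of the 1122 genes past 2-fold a further probe was kept, for 258 of those a further probe differed by less than 0.25 in the same direction or had the opposite sign, and for 55 a further probe had the opposite sign.

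**Figure D1:**
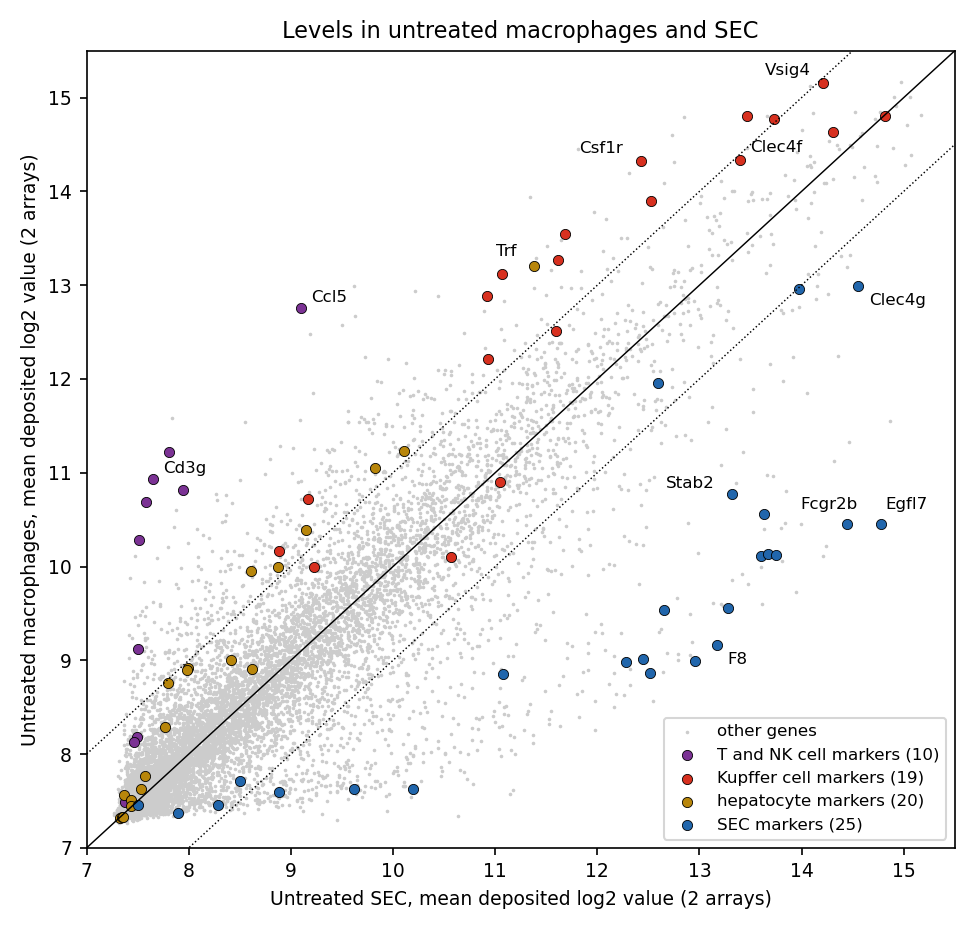
Mean deposited log2 value of each gene on the 2 untreated SEC arrays (x axis) and on the 2 untreated macrophage arrays (y axis), with genes of 4 cell type marker lists in colour and dotted lines at a 2-fold difference. SEC markers lie low and to the right, T and NK cell markers lie high and to the left, and most Kupffer cell markers lie above 10 on both axes.

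The labelled cell types were first checked against markers. Of 20 Kupffer cell markers 19 were tested, 16 were called higher and 1 lower in macrophages, and 11 were at least 2-fold higher, with a median difference of 1.28. Clec4f, the C-type lectin by which mouse Kupffer cells are defined, read 14.27 and 14.39 in macrophages, against 13.44 and 13.35 in SEC, a difference of 0.94 ± 0.07 (SE; adjusted p = 4.4e-07). The groups did not overlap, as was so for 9550 of the 12473 genes tested (76.6 percent). On the hepatocyte arrays of untreated mice Clec4f read 8.96 and 8.88, far below either non-parenchymal preparation. Vsig4, a complement receptor of resident macrophages, read 15.11 and 15.19 in macrophages, against 14.18 and 14.24 in SEC, and its macrophage values lay close to the top of the deposited scale. Larger differences were measured for Csf1r, the receptor of the macrophage growth factor CSF1, with values of 14.37 and 14.28 in macrophages, against 12.53 and 12.33 in SEC. Its difference was 1.89 ± 0.09 (adjusted p = 2.19e-08). Cd163, the scavenger receptor for haemoglobin bound to haptoglobin, read 13.62 and 13.48 in macrophages, against 11.81 and 11.55 in SEC. Folr2, a folate receptor of resident macrophages (2.06), C6, a terminal complement component (1.96), and Spic, a transcription factor of iron-recycling macrophages (1.55), were higher in macrophages as well. The phosphatidylserine receptor Timd4 differed by 1.28. Cd5l, a protein that macrophages secrete, was the listed marker that was not tested.

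Markers of Kupffer cells were measured well above background on the SEC arrays. The median over the list was 13.27 in macrophages, 11.62 in SEC and 8.48 in hepatocytes. The log2 of the summed linear values of the list was 17.98 and 17.99 in macrophages, against 17.03 and 17.07 in SEC. Background was not subtracted from this sum or from those of the lists below. Slc40a1, the iron exporter ferroportin, read 14.89 and 14.72 in macrophages, against 14.84 and 14.79 in SEC, which is close to the top of the scale in both preparations, and it was not called (-0.01, adjusted p = 0.951). Marco, a scavenger receptor for bacteria, read 10.89 and 10.92 in macrophages, against 11.08 and 11.01 in SEC and was not called (-0.14, adjusted p = 0.161). Id3, an inhibitor of DNA binding needed for Kupffer cells in mice, was lower in macrophages (-0.46). How many macrophages the SEC preparations held was not measured, and the part of such cells in the results was not tested.

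SEC markers separated the preparations by larger steps. All 25 were tested, 24 were called lower and 0 higher in macrophages, 20 were at least 2-fold lower, and the median difference was -3.07. Stab2, an endocytic receptor for hyaluronan, read 10.87 and 10.66 in macrophages, against 13.36 and 13.28 in SEC, a difference of -2.55 ± 0.08 (adjusted p = 8.81e-10). Lyve1, a hyaluronan receptor of sinusoidal and lymphatic endothelium, read 8.96 and 9.01 in macrophages, against 12.30 and 12.25 in SEC. F8, the gene of coagulation factor VIII, which liver endothelium makes, read 9.16 and 9.17 in macrophages, against 13.21 and 13.13 in SEC, a difference of -4.01 ± 0.13 (adjusted p = 8.09e-10). In each of these the macrophage values stood apart from those of SEC, as for 76.6 percent of all genes tested. They also stood above the hepatocyte values, which were 8.42 and 8.52 for Stab2, 7.96 and 7.74 for Lyve1 and 8.03 and 8.08 for F8. Smaller differences were measured for Clec4g, a lectin of liver endothelium (-1.57), Mrc1, the mannose receptor (-1.01), Cdh5, the endothelial cadherin (-0.64), and Gata4, a transcription factor of SEC identity (-0.83). Kdr, the main VEGF receptor, read 7.45 and 7.47 in macrophages, against 7.52 and 7.49 in SEC, near background in both. It was not called (-0.05, limma adjusted p = 0.666), and at such levels its probe informs little about Kdr in either preparation. The list's median level was 9.16 in macrophages, 12.66 in SEC and 7.97 in hepatocytes, and the log2 of its summed linear values was 15.09 and 15.12 in macrophages, against 17.71 and 17.72 in SEC. The part of endothelial RNA in the macrophage preparations was not tested.

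**Figure D2:**
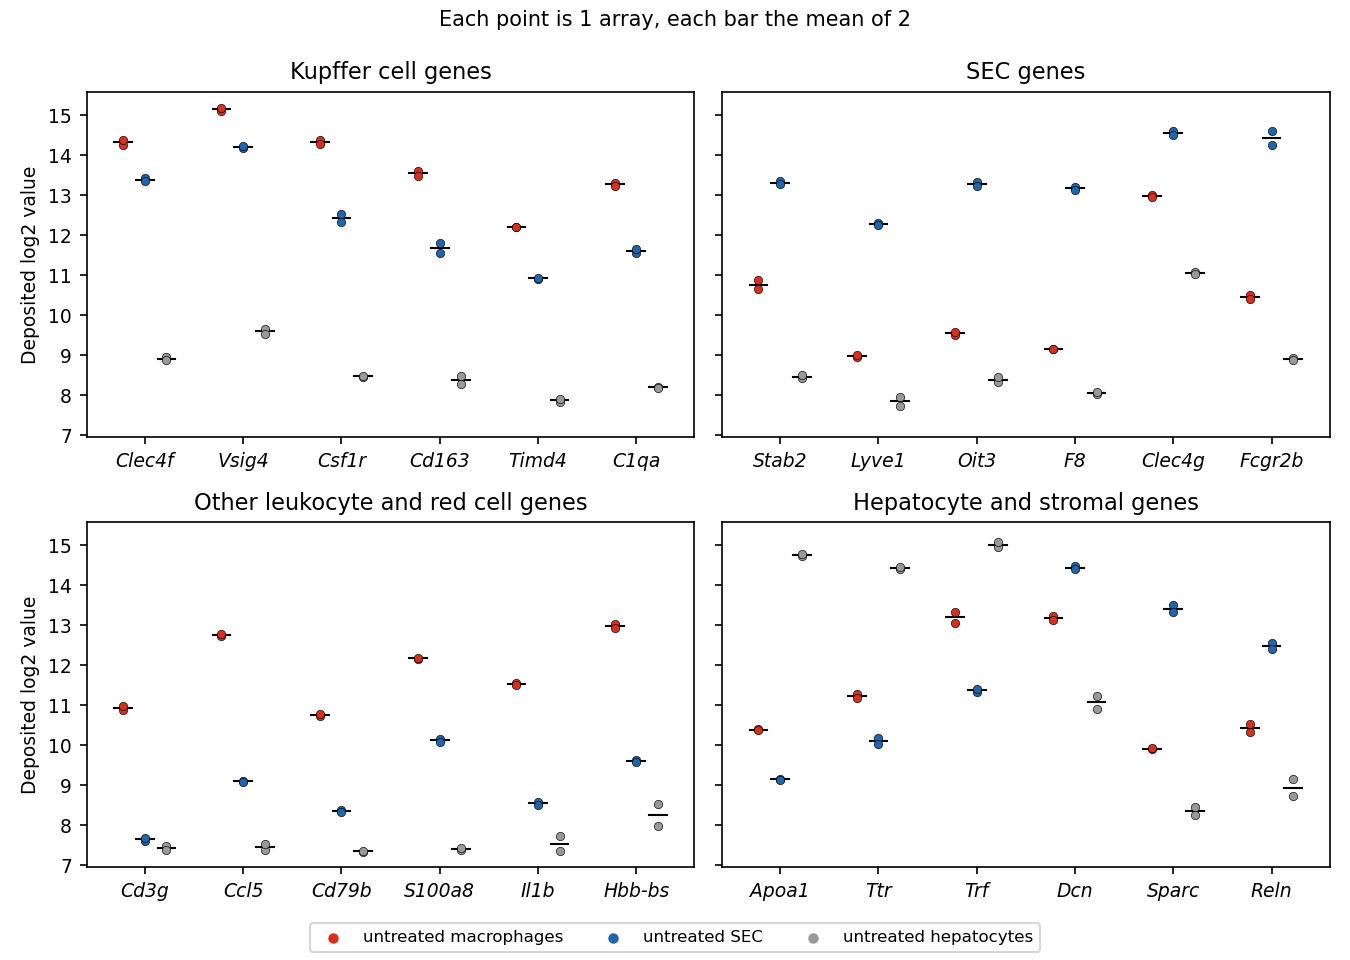
Deposited log2 value of marker genes on each untreated array, 2 arrays a group (points, with their mean as a bar), for macrophages, SEC and hepatocytes, in 4 panels of Kupffer cell genes, SEC genes, genes of other leukocytes and red cells, and hepatocyte and stromal genes. Kupffer cell genes are high in both untreated preparations, SEC genes and stromal genes are higher in SEC, and T cell, B cell, neutrophil and globin genes are higher in macrophages.

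Among the 10 named genes with the largest differences on the macrophage side were T cell genes, globins, Gbp2b (3.29), an interferon-induced GTPase, and the cytokine Il1b (2.99). Of 14 T and NK cell markers 10 were tested, 9 were called higher and 0 lower, 7 were at least 2-fold higher, and the median difference was 2.82 (4.37 with the receptor median subtracted). Trbv13-2, a variable segment of the T cell receptor beta chain, led all named genes with 11.61 and 11.56 in macrophages, against 7.85 and 7.82 in SEC, a difference of 3.75 ± 0.05 (adjusted p = 9.32e-12). Ccl5, a chemokine stored by memory T and NK cells, read 12.73 and 12.77 in macrophages, against 9.12 and 9.08 in SEC. Cd3g, a chain of the T cell receptor complex, read 10.88 and 10.98 in macrophages, against 7.62 and 7.68 in SEC, so its SEC values were little above background. The other CD3 chains Cd3d (3.10) and Cd3e (2.77), the T cell surface protein Thy1 (3.41), the granule protein Nkg7 (2.88), the chemokine receptor Cxcr6 of liver-resident lymphocytes (2.64) and the lymphocyte protease gene Ctsw (2.73) followed. The NK cell receptor gene Ncr1 was not above background on the SEC arrays and was not called (0.11). The log2 of the summed linear values of the T and NK cell list was 14.05 and 14.10 in macrophages, against 11.16 and 11.17 in SEC. The part of these cells in the other differences was not tested.

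Markers of other blood cells were higher in macrophages for some members of each list. B and plasma cell markers had 5 of 9 members tested, with 3 called higher and 0 lower. Cd79b, a chain of the B cell receptor, read 10.73 and 10.79 in macrophages, against 8.38 and 8.35 in SEC, whereas the B cell marker Ms4a1 (0.10) and the antibody joining chain Jchain (0.06) were not called. Neutrophil markers had 12 of 13 members tested, with 4 called higher and 0 lower and a median of 0.10 (0.59 with the receptor median subtracted). S100a8, a calcium-binding protein of neutrophils and monocytes, read 12.15 and 12.19 in macrophages, against 10.16 and 10.09 in SEC. The granule genes Ngp (0.00), Elane (-0.03) and Mpo (0.03) were not called. The median level of the neutrophil list was 7.62 in macrophages and 7.54 in SEC, near background. On neither macrophage array were 3 of the 12 above background, so small differences of dim members say little. The log2 of summed linear values was 11.48 and 11.51 in macrophages, against 10.08 and 10.13 in SEC for B cells and 13.22 and 13.22 in macrophages, against 11.87 and 11.88 in SEC for neutrophils. Among 9 of 10 erythroid and platelet markers 5 were higher and 2 lower, with 1 lower without either macrophage array or without SEC replicate 2. Adult beta globin Hbb-bs read 13.04 and 12.94 in macrophages, against 9.64 and 9.60 in SEC, and the globins Hba-a1 (3.07) and Hbb-bt (3.05), close copies whose probes may share signal, were higher too. The haem synthesis gene Alas2 of red cell precursors was not above background on the SEC arrays and was at least 1.15-fold higher in macrophages. The platelet genes Pf4 (-0.50) and Itga2b (-0.21) were lower in macrophages. The summed erythroid and platelet list stood at 14.46 and 14.48 in macrophages, against 12.14 and 12.18 in SEC on the log2 scale, and the part of these blood cells in the other results was not tested.

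Monocyte and dendritic cell genes were mixed. Among 11 of 13 markers of monocytes and monocyte-derived macrophages, 8 were higher and 1 lower in macrophages (0 lower without macrophage replicate 2 or SEC replicate 1), with a median of 0.38 (0.79 with the receptor median subtracted). The calcium-binding proteins S100a6 (1.63) and S100a4 (1.41) differed most, ahead of Plac8 (0.95), a gene of inflammatory monocytes, and of the lysozyme gene Lyz2 (0.47). The fractalkine receptor Cx3cr1 was lower in macrophages (-0.16). Each tested marker of this list, the integrin gene Itgam among them, was above background on at least 1 macrophage array. Of the 11, 10 had a probe above background on both untreated macrophage arrays or both untreated SEC arrays. Dendritic cell markers had 10 of 11 members tested, 6 higher and 3 lower. Batf3, a transcription factor of cross-presenting dendritic cells, read 10.16 and 10.25 in macrophages, against 7.78 and 7.82 in SEC, whereas Clec9a (-0.51), a receptor for dead cells on those dendritic cells, and Zbtb46 (-0.87), a transcription factor shared by dendritic and endothelial cells, were lower in macrophages. Summed linear values gave 14.82 and 14.86 in macrophages, against 14.17 and 14.25 in SEC for the monocyte list and 12.90 and 12.90 in macrophages, against 12.73 and 12.88 in SEC for the dendritic cell list on the log2 scale. The part of monocytes and dendritic cells in the other results was not tested.

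Hepatocyte transcripts were higher in the macrophage preparations and stromal transcripts in the SEC preparations. Of 20 hepatocyte markers tested of 21, 12 were higher and 0 lower in macrophages, with a median of 0.55 (1.15 with the receptor median subtracted), and 0.92 over members above background in untreated macrophages or SEC. Ttr, the plasma carrier transthyretin, read 11.29 and 11.18 in macrophages, against 10.17 and 10.03 in SEC, and 14.41 and 14.46 on the hepatocyte arrays. Apoa1, the main protein of high-density lipoprotein, read 10.41 and 10.38 in macrophages, against 9.16 and 9.15 in SEC, and 14.73 and 14.77 in hepatocytes. The probe of albumin, Alb, was not above background in either non-parenchymal preparation and read 9.25 and 9.14 in hepatocytes, so it informs little here. Of 17 stellate cell and fibroblast markers tested of 19, 15 were lower and 0 higher in macrophages, with a median of -0.96. Sparc, a matrix-binding glycoprotein made by stellate and endothelial cells, read 9.91 and 9.93 in macrophages, against 13.51 and 13.33 in SEC. Reln, the gene of reelin, made by stellate cells and lymphatic endothelium, read 10.33 and 10.52 in macrophages, against 12.55 and 12.41 in SEC. Each tested marker of this list, the collagen gene Col1a1 among them, was above background on at least 1 SEC array. Of the 17, 16 had a probe above background on both untreated macrophage arrays or both untreated SEC arrays. Acta2, the actin of contractile stromal cells, was not called (0.04). Of 6 cholangiocyte markers tested of 9 limma called 0 in either direction. Of these, 3 were above background on neither macrophage array and 4 on neither SEC array. Their median level was 7.41 in macrophages and 7.40 in SEC, so they inform little here. The log2 of summed linear values was 14.32 and 14.46 in macrophages, against 13.15 and 13.17 in SEC for hepatocyte markers, 14.36 and 14.40 in macrophages, against 16.14 and 16.21 in SEC for stromal markers and 10.01 and 10.01 in macrophages, against 9.98 and 9.99 in SEC for cholangiocyte markers. The part of hepatocyte and stromal RNA in the other results was not tested.

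Immune-receptor signalling and Fc receptors divided the preparations by sign. Of 34 genes of myeloid receptor signalling tested of 37, 32 were higher and 1 lower in macrophages, 23 were at least 2-fold higher, and the median was 1.35. Fcer1g, the signalling chain shared by activating Fc receptors, read 14.43 and 14.46 in macrophages, against 11.81 and 11.81 in SEC, a difference of 2.64 ± 0.05 (adjusted p = 1.56e-11). The actin regulators Coro1a (2.03) and Was (1.88), the inhibitory receptor Lilrb4a (1.99) and the leukocyte phosphatase Ptprc (1.44), or CD45, were also higher. Such genes are expressed by lymphocytes too. The 1 member called lower was Pik3cg, a kinase subunit (-0.43), and it turned positive (0.052) when all its kept probes were averaged. Of 10 Fc receptor genes tested, 7 were higher and 2 lower. Fcgr4, an activating receptor for IgG, read 13.72 and 13.69 in macrophages, against 12.02 and 12.16 in SEC, and the activating receptors Fcgr3 (1.47) and Fcgr1 (1.31) were higher as well. Fcgr2b, the inhibitory IgG receptor by which SEC take up immune complexes, read 10.51 and 10.40 in macrophages, against 14.27 and 14.61 in SEC, a difference of -3.99 ± 0.10 (adjusted p = 1.34e-10), and its groups lay far apart. Fcgrt, the receptor that recycles IgG and albumin, was lower in macrophages (-1.15).

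Promoters of the genes tested were searched for fixed motifs, on both strands, in RefSeq windows of 300 bases of GRCm38.p6 that span a gene's start. A window was available for 10037 of the 12473 genes tested. It was available for 373 of the 482 genes at least 2-fold higher in macrophages and for 483 of the 640 higher in SEC. A gene was counted when any of its windows held the letters. The letters GAGGAAGT are a site type of the myeloid factor PU.1. They were present for 37 of the 373 genes higher in macrophages (9.92 percent) and for 12 of the 483 genes higher in SEC (2.48 percent). The share was 3.86 percent of the 10037 genes tested with a window and 3.69 percent of all 27025 genes with a window. The GATA letters AGATAA were present for 12.3 percent of these macrophage genes, 9.11 percent of these SEC genes and 8.81 percent of the genes tested with a window. The E-box CAGCTG was present in 23.1 percent, 22.8 percent and 18.0 percent in the same order, the AP-1 letters TGANTCA in 9.65, 7.87 and 7.09 percent, and the ETS letters ACCGGAAGT in 0.80, 1.04 and 2.18 percent. GAGGAAGT can overlap an ETS site. Shown 5′ to 3′, with the PU.1-type letters in capitals (ACTTCCTC where they lie on the other strand), are the promoters of 4 genes higher in macrophages, Fcgr4, the signalling adapter Vav1 (1.26), the complement gene C1qc (1.33) and the phosphatidylserine receptor Cd300ld (2.51), and of Eng, a gene higher in SEC (-4.23) that also holds the letters. They were chosen after the values were seen, to show where the letters lie, and a match is a description, not a bound site.
Fcgr4 (chr1:171018676-171018975, plus strand): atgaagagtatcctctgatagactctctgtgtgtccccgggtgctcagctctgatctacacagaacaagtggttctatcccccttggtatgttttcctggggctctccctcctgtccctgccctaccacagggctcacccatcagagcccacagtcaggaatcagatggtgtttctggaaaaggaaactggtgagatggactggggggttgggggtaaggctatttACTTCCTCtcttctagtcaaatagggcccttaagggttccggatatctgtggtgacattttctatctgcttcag
Vav1 (chr17:57278850-57279149, plus strand): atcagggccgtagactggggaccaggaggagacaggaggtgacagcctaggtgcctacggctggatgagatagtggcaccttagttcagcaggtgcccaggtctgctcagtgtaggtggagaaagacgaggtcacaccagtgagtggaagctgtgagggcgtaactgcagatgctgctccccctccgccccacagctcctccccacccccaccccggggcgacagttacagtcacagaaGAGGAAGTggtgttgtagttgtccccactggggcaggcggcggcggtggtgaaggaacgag
C1qc (chr4:136892865-136893164, minus strand): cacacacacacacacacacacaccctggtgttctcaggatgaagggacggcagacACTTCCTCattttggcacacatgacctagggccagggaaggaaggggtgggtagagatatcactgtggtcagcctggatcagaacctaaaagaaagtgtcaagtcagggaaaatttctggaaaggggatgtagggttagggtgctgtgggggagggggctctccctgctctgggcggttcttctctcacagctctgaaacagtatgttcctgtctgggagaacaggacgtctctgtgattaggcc
Cd300ld (chr11:114989837-114990136, minus strand): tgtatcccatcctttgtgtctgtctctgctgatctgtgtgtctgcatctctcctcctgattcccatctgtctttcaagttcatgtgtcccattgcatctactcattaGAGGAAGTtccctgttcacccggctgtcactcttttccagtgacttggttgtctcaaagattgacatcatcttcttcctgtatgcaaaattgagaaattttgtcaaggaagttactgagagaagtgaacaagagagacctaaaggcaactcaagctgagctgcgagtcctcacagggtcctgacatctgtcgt
Eng (chr2:32646345-32646644, plus strand): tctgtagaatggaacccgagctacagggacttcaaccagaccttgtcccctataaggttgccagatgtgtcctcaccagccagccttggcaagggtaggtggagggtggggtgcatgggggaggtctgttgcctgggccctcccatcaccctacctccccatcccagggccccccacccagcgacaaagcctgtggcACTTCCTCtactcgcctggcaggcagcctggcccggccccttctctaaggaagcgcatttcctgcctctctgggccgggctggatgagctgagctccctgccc

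Lineage transcription factors followed the labels in part. Of 22 macrophage factors tested of 24, 13 were higher and 3 lower in macrophages, with a median of 0.49 (0.91 with the receptor median subtracted). Spi1, which encodes PU.1, read 9.43 and 9.43 in macrophages, against 8.18 and 8.27 in SEC, a difference of 1.21 ± 0.08 (adjusted p = 2.2e-07). Ikzf1, a factor of all lymphoid and some myeloid cells (1.81), Irf5, a factor of Toll-like receptor responses (1.29), and Nr1h3, the oxysterol receptor LXR alpha (0.91), were higher. Maf (-0.79) and Id1 (-0.90) were lower in macrophages, and Pparg was not called (0.17). Of 25 endothelial factors tested of 29, 15 were lower and 2 higher in macrophages, with a median of -0.57 (-2.20 with the receptor median subtracted). Sox18, a factor of blood and lymph vessel formation, read 8.54 and 8.60 in macrophages, against 11.93 and 12.02 in SEC, a difference of -3.41 ± 0.07 (adjusted p = 5.47e-11). Its relatives Sox7 (-2.19) and Sox17 (-2.06), the ETS family gene Ets2 (-3.23), the homeobox gene Meis2 (-2.89) and Gata2 (-2.22) differed in the same direction. Fli1 (0.03), Hhex (-0.10) and Klf2 (-0.12), which also act in endothelium, were not called. Hopx, a homeodomain protein, was higher in macrophages (1.64).

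**Figure D3:**
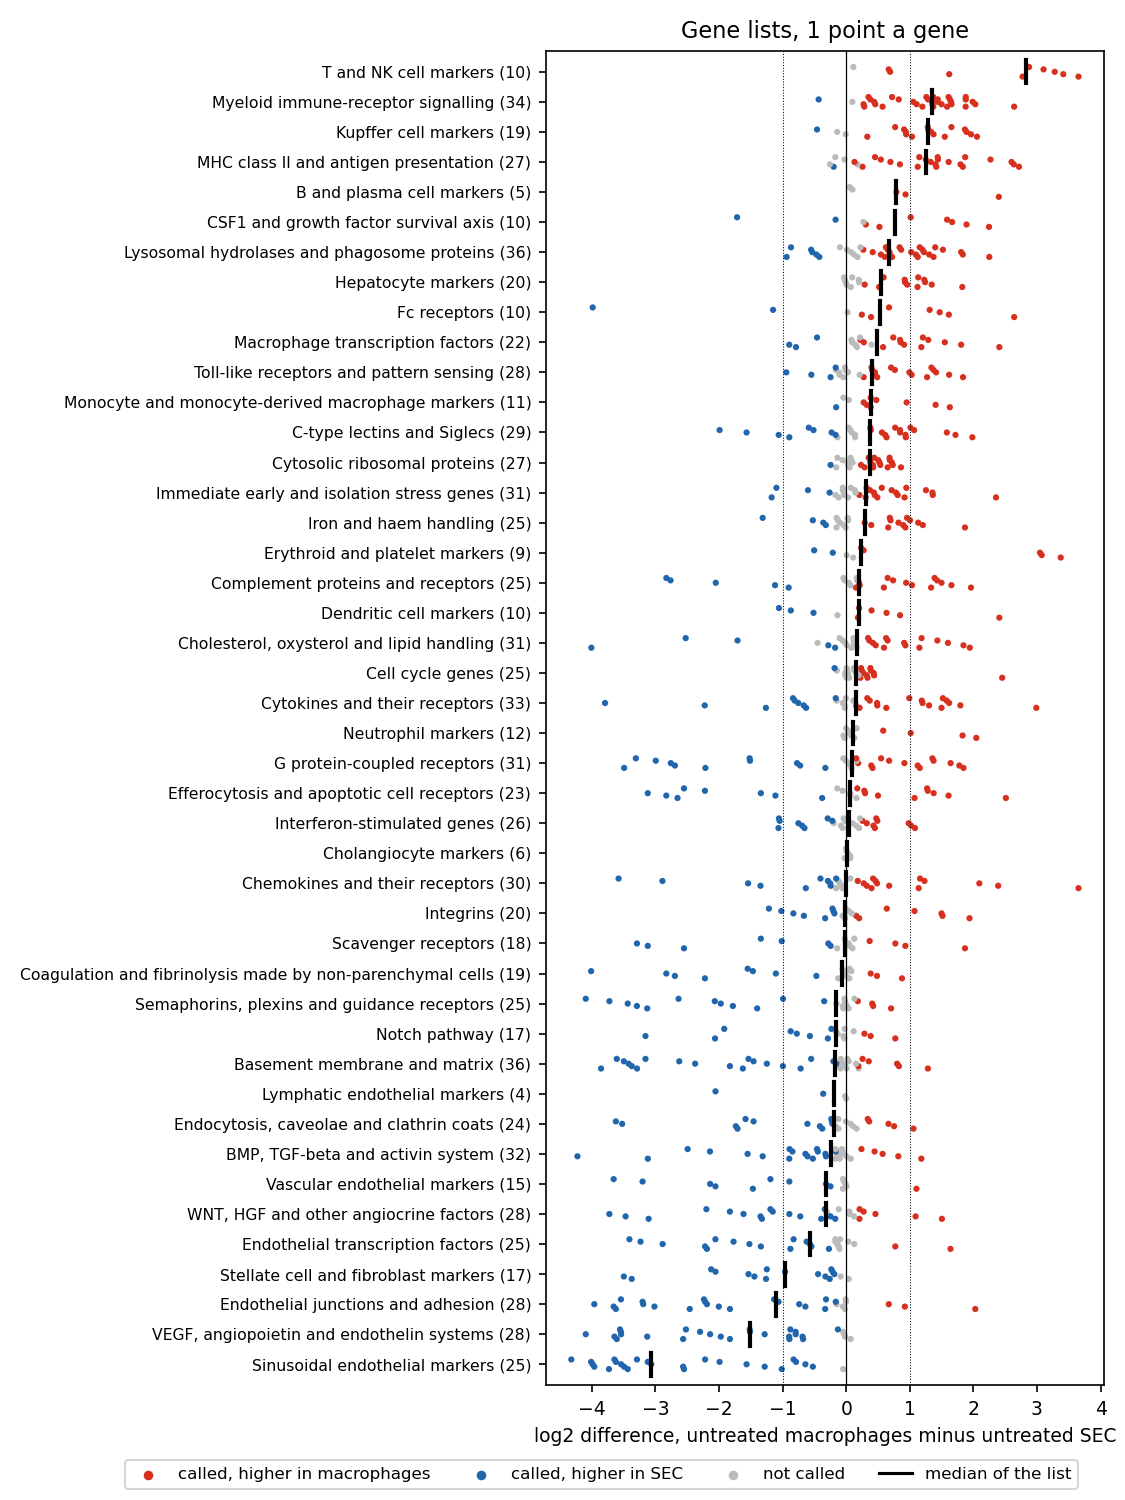
Difference of each gene, untreated macrophages minus untreated SEC on the log2 scale, for each of 44 gene lists in order of the list's median (black bar), with the number of genes tested in parentheses and dotted lines at a 2-fold difference. T and NK cell markers have the highest median (2.82) and SEC markers the lowest (-3.07), and Fc receptors, complement and chemokines reach far in both directions.

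Growth factors, cytokines and chemokines were called in both directions. Of 10 genes of the CSF1 axis and related receptors, 7 were higher and 2 lower in macrophages, with 1 lower without any 1 of the 4 arrays. The ligand Csf1 read 7.77 and 7.74 in macrophages, against 9.41 and 9.53 in SEC, a difference of -1.72 ± 0.11 (adjusted p = 1.73e-07), opposite in sign to its receptor Csf1r (1.89). The alternative ligand Il34 was also lower in macrophages (-0.17), whereas the receptor chain Csf2ra (1.67) and the signalling adapters Tyrobp (1.59) and Hcst (2.25) were higher. Of 33 cytokine genes and receptors tested of 40, 17 were higher and 9 lower, with a median of 0.15 (0.64 with the receptor median subtracted). Il1b, the inflammatory cytokine interleukin-1 beta, read 11.56 and 11.52 in macrophages, against 8.60 and 8.50 in SEC, a difference of 2.99 ± 0.10 (adjusted p = 1.13e-09). Il18 (1.62), its inhibitor Il18bp (1.80) and the receptor chains Il10ra (1.58) and Ifngr1 (1.52) were higher. Il6st, the gp130 chain shared by receptors of the interleukin-6 family, read 8.95 and 9.05 in macrophages, against 12.77 and 12.82 in SEC. Its partner chains Osmr (-2.22) and Lifr (-0.84) were likewise lower in macrophages.

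Chemokine genes reached far in both directions. Of 30 chemokines and receptors tested of 35, 14 were higher and 10 lower in macrophages, with a median of 0.00 (0.06 with the receptor median subtracted). Beside Ccl5, the eosinophil attractant Ccl24 read 11.30 and 11.26 in macrophages, against 8.91 and 8.87 in SEC, and the B cell attractant Cxcl13 read 11.63 and 11.68 in macrophages, against 9.47 and 9.65 in SEC. Ccl3 (1.23), Ccl4 (1.16) and Ccl6 (1.14) were higher by smaller amounts. Ackr1, an atypical receptor that binds chemokines without signalling and marks venules, read 7.55 and 7.59 in macrophages, against 11.10 and 11.20 in SEC, a difference of -3.58 ± 0.05 (adjusted p = 1e-11). The atypical receptor Ackr2 (-2.89), the stromal chemokine Cxcl12 (-1.35) and the interferon-induced chemokine Cxcl9 (-1.54) were lower in macrophages. The monocyte attractant Ccl2 was not called (0.07).

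Receptors for debris and microbes were called in both directions. Of 18 scavenger receptors tested of 21, 4 were higher and 7 lower in macrophages. Over all genes 23.1 percent were higher and 22.2 percent lower, so the number of scavenger receptors higher was near the share of all genes. Cd163, Lrp1 (0.93), a receptor of lipoprotein remnants, Scarb2 (0.77), a lysosomal receptor, and Msr1 (0.37), a receptor of modified lipoprotein, were the higher ones. Stab1, the relative of Stab2, read 9.54 and 9.54 in macrophages, against 12.68 and 12.63 in SEC, and Scarf1 (-1.34) and the fatty acid receptor Cd36 (-0.28) were lower as well. Among 29 C-type lectins, Siglecs and galectins tested, 15 were higher and 8 lower. The myeloid lectins Clec4a3 (1.98), Clec4a1 (1.72) and Clec7a (1.58), the receptor of fungal glucans, had the largest positive differences, and Cd209b (-1.99) and Clec4g (-1.57) the largest negative ones. Of 28 genes of Toll-like receptors and microbe sensing tested, 16 were higher and 4 lower in macrophages, with 2 lower without either macrophage array or without SEC replicate 2, and as many with the receptor median subtracted. Cd14, a co-receptor of lipopolysaccharide, read 10.87 and 10.94 in macrophages, against 9.04 and 9.10 in SEC, while the lipopolysaccharide-binding protein Lbp (-0.94) and the peptidoglycan sensor Nod1 (-0.55) were lower in macrophages. Tlr7 (1.41) and Tlr13 (1.27), which sense RNA, and Unc93b1 (1.34), which carries such receptors to endosomes, were higher.

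Complement genes were called in both directions, 14 higher and 5 lower in macrophages of 25 tested and 30 listed. C1qa, a chain of the component C1q that binds immune complexes, read 13.31 and 13.24 in macrophages, against 11.56 and 11.67 in SEC, a difference of 1.65 ± 0.08 (adjusted p = 2.73e-08). The other chains C1qb (1.04) and C1qc (1.33), the classical pathway genes C2 (1.43) and C4b (1.39), and the integrin chain Itgb2 of the complement receptors (1.50) were higher too. Cd93, a surface protein of endothelium, read 9.12 and 9.05 in macrophages, against 11.85 and 11.97 in SEC. The lectin pathway protease Masp1 (-2.76) and the inhibitors Cd55 (-2.05), Serping1 (-1.12) and Cd59a (-0.91) were lower in macrophages.

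**Figure D4:**
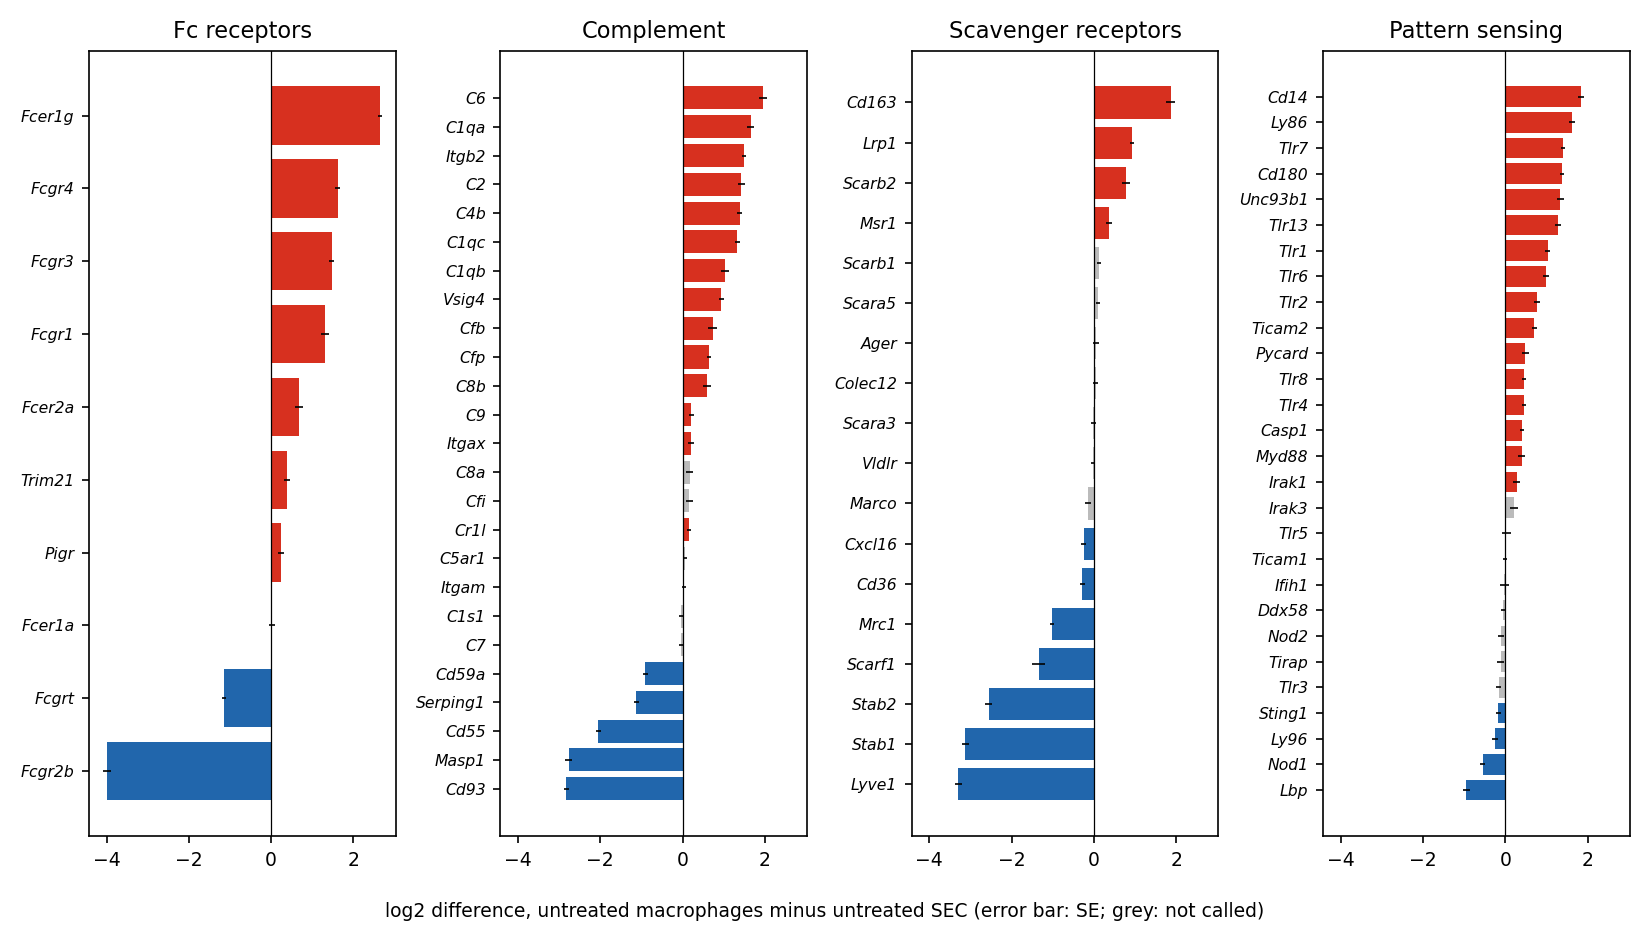
Difference of each tested gene, untreated macrophages minus untreated SEC on the log2 scale (bars, with the standard error), in panels of Fc receptors, complement, scavenger receptors and pattern sensing, with genes not called in grey. Activating Fc receptor genes and C1q genes are higher in macrophages, and Fcgr2b, Stab1, Stab2, Lyve1, Cd93 and Masp1 are each lower in macrophages by more than 2 units.

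Antigen presentation was higher in macrophages across most of its list. All 27 genes were tested, 22 were higher and 1 lower (0 lower without SEC replicate 2), 16 were at least 2-fold higher, and the median was 1.25. H2-DMa, a chain of the chaperone that loads peptides on MHC class II, read 12.92 and 12.95 in macrophages, against 10.21 and 10.23 in SEC, a difference of 2.72 ± 0.07 (adjusted p = 1.56e-10). H2-Eb1, a class II chain, averaged 13.94 ± 0.08 in macrophages and 11.34 ± 0.05 in SEC (SD, n = 2 each). The class II chain H2-Ab1 (1.87), the invariant chain Cd74 (1.15) and the class II master regulator Ciita (1.61) were higher as well. The class I gene H2-K1 was lower in macrophages (-0.20), and H2-D1 was not called (-0.03) but stood at 0.22 with its kept probes averaged. Class I and class II genes are close relatives, so signal of a probe may be shared between copies. B cells and dendritic cells express class II genes too.

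Genes of lysosomes and phagosomes were mostly higher in macrophages, with 24 higher and 6 lower of 36 tested and a median of 0.67. Rac2, a GTPase of the phagocyte oxidase, read 11.28 and 11.26 in macrophages, against 9.01 and 9.03 in SEC. The cathepsins Ctsh (1.83) and Ctsc (1.81), and Gm2a, an activator of ganglioside breakdown (1.52), were higher, whereas the cathepsins Ctsl (-0.87) and Ctsb (-0.55) and the lysosomal membrane protein Lamp2 (-0.94) were lower. Genes for the clearance of dying cells were divided, 10 higher and 8 lower of 23. The receptors Cd300ld, Cd300a (1.61), Timd4 and Axl (1.27) were higher in macrophages. Gas6, the ligand of Axl, read 8.83 and 8.83 in macrophages, against 11.74 and 11.58 in SEC, opposite in sign to its receptor. The bridging proteins Pros1 (-2.22) and Mfge8 (-2.65) were lower too, and the receptor Mertk was not called (0.06).

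Of 25 iron and haem genes, 13 were higher and 4 lower in macrophages. Blvrb, a reductase of haem breakdown products (1.13), Flvcr1, a haem exporter (0.96), and the iron hormone gene Hamp (1.20), made mainly by hepatocytes, were higher. The ferritin chains Ftl1 (-0.36) and Fth1 (-0.32) were lower in macrophages, as was Bmp6, the endothelial signal that induces Hamp in hepatocytes, which read 7.72 and 7.70 in macrophages, against 9.02 and 9.03 in SEC. Bmp2, which acts with it, was not above background in macrophages and was at least 1.38-fold lower there. Of 31 lipid genes tested of 39, 15 were higher and 5 lower. Apoc1, an apolipoprotein (1.94), Pltp, which transfers phospholipids (1.60), and Alox5ap, a partner of leukotriene synthesis (1.43), were higher. Gpihbp1, which carries lipoprotein lipase to the capillary surface, read 9.57 and 9.63 in macrophages, against 13.60 and 13.62 in SEC, a difference of -4.01 ± 0.07 (adjusted p = 1.51e-11).

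Genes of vessel growth and tone were higher in SEC for most members tested. Of 28 genes of the VEGF, angiopoietin and endothelin systems tested of 34, 24 were lower and 0 higher in macrophages, 16 at least 2-fold, with a median of -1.52 (-2.85 with the receptor median subtracted). Egfl7, a matrix protein secreted by endothelium, one of the SEC markers and the named gene with the largest SEC value over macrophages, read 10.44 and 10.47 in macrophages, against 14.71 and 14.85 in SEC, a difference of -4.32 ± 0.08 (adjusted p = 2.85e-11). Flt1, a VEGF receptor that also acts as a trap for the ligand, read 10.01 and 9.97 in macrophages, against 13.63 and 13.57 in SEC. Tek, the angiopoietin receptor, read 8.90 and 8.84 in macrophages, against 12.51 and 12.52 in SEC. In all of these the groups stood far apart. Nos3, the endothelial nitric oxide synthase, read 7.65 and 7.57 in macrophages, against 11.22 and 11.12 in SEC, and Robo4, an endothelial guidance receptor, differed by -4.10 ± 0.07 (adjusted p = 1.51e-11). Of 15 markers of large-vessel endothelium tested of 18, 9 were lower and 1 higher in macrophages, and the arterial connexin Gja5 was not above background in either preparation. Of 4 lymphatic markers tested of 5, 2 were lower, and the lymphatic factor Prox1 was not above background in either preparation.

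Signalling systems by which liver endothelium acts on its neighbours were higher in SEC for many members. Of 17 Notch pathway genes tested, 8 were lower and 3 higher in macrophages. Notch4, an endothelial receptor, read 8.33 and 8.41 in macrophages, against 11.56 and 11.50 in SEC, and Notch1 differed by -2.06. The ligand Dll4 was not above background in macrophages and was at least 1.81-fold lower there. Of 32 genes of the BMP, TGF-beta and activin system tested, 17 were lower and 5 higher. Eng, the co-receptor endoglin, read 9.66 and 9.79 in macrophages, against 13.95 and 13.95 in SEC, a difference of -4.23 ± 0.09 (adjusted p = 3.65e-11). The receptor Bmpr2 (-2.14) and the co-receptor Tgfbr3 (-2.49) were lower, and Tgfbr1 (0.82) and Acvrl1 (0.45) were higher in macrophages. Of 28 WNT, HGF and other angiocrine genes tested, 17 were lower and 6 higher. Wnt2, a liver endothelial WNT that acts on hepatocytes, read 7.97 and 7.87 in macrophages, against 9.83 and 9.66 in SEC. Rspo3, an enhancer of WNT signals from the central vein, differed by -0.89. Ephb4, a receptor of veins, differed by -3.72, and its ligand Efnb2, of arteries, by -1.19. The growth factors Igf1 (1.50) and Pdgfc (1.09) were higher in macrophages.

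Of 28 genes of junctions and adhesion tested, 20 were lower and 3 higher in macrophages, 15 at least 2-fold lower, with a median of -1.10 (-2.20 with the receptor median subtracted). Cldn5, the endothelial claudin, read 8.94 and 9.05 in macrophages, against 12.92 and 12.99 in SEC, and Esam, an adhesion molecule of endothelial cells, differed by -3.66. The higher members were Selplg, the leukocyte ligand of selectins (2.03), Vcam1 (0.92) and Icam1 (0.67). Of 36 matrix genes tested, 19 were lower and 6 higher. Hspg2, the basement membrane proteoglycan perlecan, read 9.00 and 9.11 in macrophages, against 12.89 and 12.92 in SEC, and Timp3, an inhibitor of matrix proteases (-3.61), and the collagen chain Col4a1 (-3.29) differed the same way. The protease Mmp9 was higher in macrophages (1.28). Integrins were divided, 7 higher and 8 lower of 20 (5 lower without SEC replicate 1), with the leukocyte chains Itgb7 (1.94) and Itgal (1.51) on the macrophage side and Itga5 (-1.22) and Itga1 (-1.02) on the SEC side. Of 25 semaphorins, plexins and guidance receptors tested, 12 were lower and 4 higher. Sema3f, a secreted guidance signal, read 8.28 and 8.24 in macrophages, against 11.94 and 12.02 in SEC. Coagulation genes had 8 lower and 3 higher of 19, among them the anticoagulant Thbd (-1.47) on the SEC side and F13a1 (0.48), the fibrin cross-linking enzyme, on the macrophage side. Of 24 genes of endocytosis and caveolae, 12 were lower and 5 higher, with Ehd3, a membrane-shaping ATPase, at 10.11 and 10.13 in macrophages, against 13.77 and 13.72 in SEC, and the caveolar coat gene Cavin2 at a difference of -3.52.

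G protein-coupled receptors were divided as 14 higher and 11 lower of 31 tested. Gpr65, a proton sensor of leukocytes (1.84), and the nucleotide receptors P2ry13 (1.78) and P2ry12 (1.64) had the largest positive differences. Gpr182, an endothelial receptor that binds chemokines, read 10.03 and 10.20 in macrophages, against 13.70 and 13.51 in SEC, and the adhesion receptors Adgrl4 (-3.31) and Adgrg3 (-2.99) and the cannabinoid receptor Cnr2 (-2.76) were lower in macrophages.

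The same genes were read on the arrays of DEN-treated mice, which share no array with the untreated comparison. Both comparisons came from 1 fit with 1 spread per gene over all 12 arrays, so their calls are not independent. There 6716 genes (53.8 percent) were called, 3126 (25.1 percent) higher and 3590 (28.8 percent) lower in macrophages than in SEC, with 720 (5.77 percent) higher and 979 (7.85 percent) lower by at least 2-fold. Of the 640 genes at least 2-fold higher in untreated SEC, 620 were called with the same sign in DEN arrays, 8 with the opposite sign and 12 were not called, and their median difference was -1.87 in DEN arrays and -1.60 in untreated arrays. Of the 482 genes at least 2-fold higher in untreated macrophages, 345 were called with the same sign, 101 with the opposite sign and 36 were not called, with medians of 1.16 in DEN arrays and 1.38 in untreated arrays. The difference between the 2 differences was called for 375 of the 482 and for 361 of the 640, and for 33 percent of all genes tested. The 482 and the 640 were picked by their untreated differences, which also enter this test, so these shares are not alike. Kupffer cell markers had a median difference of -1.70 in DEN arrays and of 1.28 in untreated arrays. Clec4f read 8.96 and 9.07 in DEN macrophages, against 13.16 and 13.13 in DEN SEC. Slc40a1 read 11.63 and 11.66 in DEN macrophages, against 14.69 and 14.76 in DEN SEC. Both genes were thus lower in DEN macrophages than in DEN SEC, whereas in untreated arrays Clec4f was higher in macrophages and Slc40a1 was not called. SEC markers had a median of -3.85 in DEN arrays and -3.07 in untreated arrays, and T and NK cell markers a median of 4.04 in DEN arrays and 2.82 in untreated arrays. Hbb-bs read 13.88 and 13.68 in DEN macrophages, against 14.70 and 14.70 in DEN SEC, so that its sign differed between DEN and untreated arrays.

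**Figure D5:**
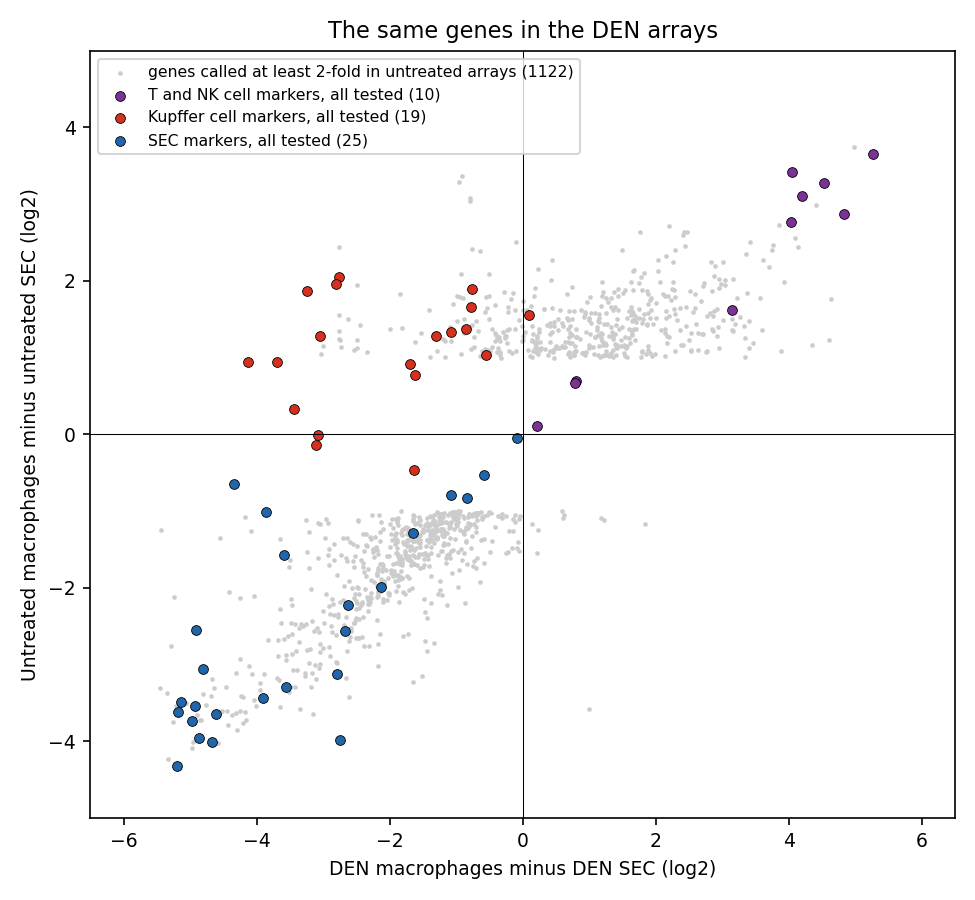
Macrophage minus SEC difference of each gene on the log2 scale in DEN-treated mice (x axis) and in untreated mice (y axis), which share no array, with Kupffer cell, SEC and T and NK cell markers in colour. SEC markers and T and NK cell markers keep their sign, and most Kupffer cell markers lie below 0 in DEN-treated mice and above 0 in untreated mice.

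Each group had 2 arrays, and the spread was pooled over the 6 groups, so that differences far under 2-fold were called and a call says little about size. When the median of the receptor probes was subtracted on the linear scale, with a floor at 16, 1362 genes were at least 2-fold higher and 1447 lower in macrophages.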

How the data were processed

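RNA of macrophages and SEC from untreated mouse livers, with 8 further arrays of the series for the spread, was measured on Illumina bead arrays. Per the labels' protocols, RNA was purified with an Ambion PureLink kit and amplified to cRNA by an Illumina TotalPrep kit. Per the submitters' processing notes the authors used lumi, and the values they deposited are on a log2 scale, as their range shows. The sources used here give neither the version of lumi nor its transform, which may be log2 or variance-stabilising. The 12 arrays share nearly the same minimum, median (7.41) and maximum, so the authors' values were already scaled between arrays, and they were used as deposited. A table of values that are not normalized has 12 value columns that match no label and was not used.

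Of 45281 probes, 34885 had 1 gene symbol in the platform annotation, 18 had several and 10378 had none; 34807 were matched through Entrez identifiers, with 10 symbols updated. Background was the 95th percentile of 1504 probes of olfactory and vomeronasal receptors on each array, a probe was kept when above it on both arrays of at least 1 group (24185 probes), and the kept probe with the highest mean stood for a gene. limma 3.58.1 in R 4.3.3 fitted 6 group means over 12 arrays (6 residual and 4.41 prior degrees of freedom), two-sided, with Benjamini-Hochberg adjustment over 12473 genes, and was tested on simulated data first. A gene above background on neither array of 1 group and on both of the other is given as at least a fold. That fold is taken from the mean background of the dimmer group's arrays to the mean of the brighter group, on the log2 scale. Sums of a list were taken over linear values without subtraction of background. Sums of lists with dim members therefore hold much background, which narrows the difference between preparations. Gene lists and alternatives were chosen with earlier results of these data known. Named genes were the 20 largest differences in each direction past 2-fold, without predicted gene models, up to 6 called members of each list in each direction with up to 3 not called, and 34 preset genes; Vav1, Hdc, C1qb, Cd74 and Ciita were named after their values were seen. Same-numbered arrays deviated from their group means with a correlation of -0.05, and nothing in the labels pairs them. The number of arrays limits the precision. Alternatives are given in the closing section. Figures were drawn with matplotlib 3.10.9.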

Additional observations from a re-analysis of the deposited data

Results flagged for a closer look

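For the 10 genes with the largest difference in each direction, the macrophage minus SEC difference in DEN arrays was tested against that in untreated arrays. limma called all 20 at an adjusted p under 0.05 over all genes, where 33 percent of the genes tested were called. The 20 were picked by their untreated differences, which also enter this test. Their number called therefore cannot be weighed against the share of all genes. The difference in DEN arrays minus that in untreated arrays was 1.24 for Trbv13-2, 1.61 for Ccl5, 0.64 for Thy1, 1.26 for Cd3g, 1.10 for Cd3d and 1.42 for Il1b, so these lymphocyte genes and Il1b stood further above SEC in DEN arrays than in untreated ones. It was -4.29 for Hbb-bs, -3.87 for Hba-a1, -3.84 for Hbb-bt and -4.25 for Gbp2b. The globins and Gbp2b, an interferon-induced GTPase, were lower in macrophages than in SEC in DEN arrays and higher in untreated arrays. Among genes higher in SEC it was -0.87 for Egfl7, -1.11 for Eng, -0.88 for Robo4, -0.55 for Adam23, -0.66 for F8, -0.94 for Gpihbp1, -0.88 for Pcdh12, -0.91 for Cldn5 and -0.45 for Hspg2, further below SEC in DEN macrophages. For Fcgr2b it was 1.24, since its DEN difference was -2.75 and its untreated difference -3.99. The adjusted p of these tests lay between 1.43e-10 and 0.0177.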

How the results depend on the processing

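Beside the values given above, calls were recomputed with only the 4 arrays compared (3428 genes higher and 3286 lower in macrophages), without a filter, with stricter filters, after cyclic loess, with the mean of all kept probes, with limma treat, after subtraction of the receptor probes' median, and without each array. The alternative fit with the replicate number as a block gave 2856 genes higher and 2732 lower in macrophages, with 482 and 640 past 2-fold, and the labels pair no samples. Subtraction of the receptor median gave 1362 genes at least 2-fold higher and 1447 lower in macrophages, and treat, which tests against a 2-fold difference, gave 319 higher and 477 lower. The share of the genes past 2-fold that were higher was 48.5 percent under subtraction, 40.1 percent under treat and 43.0 percent as reported. Without 1 array, counts ran from 2385 to 2442 higher and from 2254 to 2337 lower in macrophages, and past 2-fold from 480 to 491 higher and from 637 to 643 lower. With the mean of the kept probes, Siglech was at 0.17, H2-D1 at 0.22 and Pik3cg at 0.052, each reversed from the value of a single probe; the cause was not tested. Sign changes of genes called in neither setting were not counted. Of 464 named genes 423 kept their side of the threshold and their direction under every alternative other than treat, and 0 of 234 named genes past 2-fold lost the call or the direction under those. Treat called 195 of the 234 and did not call 39, and 796 of the 1122 genes past 2-fold were called by it. Counts of Kupffer cell (16 higher), SEC (24 lower) and T and NK cell (9 higher) markers were the same under each alternative other than treat, which called 9, 19 and 7. Counts of most other lists were also lower under treat, falling to 0 in either direction for interferon-stimulated genes and ribosomal protein genes. With only the 4 arrays compared, 7 iron and haem genes were lower in place of 4. Small counts of 1 lower member moved by 1 or 2 under single alternatives in the Kupffer cell, MHC class II, myeloid signalling, cell cycle and ribosomal lists. The deposited scale ends at 7.19 and 15.19, which limits what can be read from dim and bright probes.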

Other observations

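Interferon-stimulated genes were divided, 9 higher and 8 lower in macrophages of 26 tested, with a median of 0.04 against 0.00 over all genes. The guanylate-binding genes Gbp3 (1.02) and Gbp2 (0.98) and the DNA-binding protein gene Ifi204 (1.08) were higher, and the antiviral genes Mx2 (-1.07), Oasl2 (-1.05) and Isg15 (-0.75) were lower. Immediate early genes, which respond within minutes to stress, had 17 higher and 4 lower of 31. Fos read 11.19 and 11.10 in macrophages, against 8.80 and 8.78 in SEC, and Egr1 differed by 1.36, whereas Socs3 (-1.17) and Dusp1 (-1.10) were lower in macrophages. Cell cycle genes had 11 higher and 1 lower of 25, with a median of 0.16 (0.33 with the receptor median subtracted). The number higher was 6 without SEC replicate 1 and 7 without SEC replicate 2 or without macrophage replicate 2, and 0 were lower without either SEC array or without macrophage replicate 1. The replication gene Mcm6, the only 1 of the list at least 2-fold higher, read 9.87 and 9.89 in macrophages. It read 7.44 and 7.41 in SEC, near background. Cytosolic ribosomal protein genes had 17 higher and 1 lower of 27 (0 lower without macrophage replicate 1), with a median of 0.38.

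Hdc, the enzyme that makes histamine, was chosen after its values were seen. On the arrays of DEN-treated mice it read 13.19 and 13.19 in DEN macrophages, against 12.18 and 12.21 in DEN SEC, so it was higher in DEN macrophages. On the arrays of untreated mice it read 8.71 and 8.76 in macrophages, against 12.35 and 12.29 in SEC, a difference of -3.58. The difference of the differences was 4.58 ± 0.07 (SE; limma adjusted p = 5.73e-11).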
